A study of Mus musculus with 4 samples.

Results

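Histone genes held 69 of the 20727 distinct m6A peaks deposited for mouse natural killer (NK) cells. A peak was counted when the gene identifier given to it belonged, in the GRCm38 annotation, to a symbol that begins with Hist1h to Hist4h, or with H2af, H3f3 or H1f. The annotation held 91 such genes, and 37 of them had a peak. The Hist1 to Hist4 symbols mark the replication-dependent genes, with 47 peaks in 29 of 70 genes. The H2af, H3f3 and H1f symbols mark the variant genes, with 22 peaks in 8 of 21 genes.

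Replication-dependent histone genes lie in clusters, mostly lack introns, and are transcribed in S phase. Their mature mRNAs are the known exception among animal mRNAs, since they end in a conserved stem-loop, bound by the stem-loop binding protein SLBP, in place of a poly(A) tail. Variant histones are mostly made throughout the cell cycle from ordinary polyadenylated mRNAs. N6-methyladenosine (m6A) is placed by the METTL3 complex on the adenosine of DRACH sequences, where D stands for any base but C, R for a purine and H for any base but G.

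The NK cells came from spleens of C57BL/6 mice in which they had been expanded by the IL-15 expression plasmid pLIVE-IL-15, and were then sorted. Poly(A) RNA was selected and fragmented, an m6A-specific antibody took up part of the fragments (2 immunoprecipitates), and untreated fragments served as control (2 input RNA libraries). All 4 libraries share the strain, the tissue and the plasmid, and no group without the plasmid was sequenced. The deposited list combines the libraries, so that each peak has 1 fold enrichment of immunoprecipitate over input and 1 log10 of the peak-calling p, with no value per sample, no error between replicates and no depth. Every comparison here is therefore a description of this list without a test.

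Markers of the labelled cell type and of others were looked up. All 10 NK cell markers had a peak, as did 5 of 5 myeloid, 3 of 5 T cell, 3 of 5 B cell and 2 of 3 erythroid markers, beside 46.3% of all protein-coding genes. The myeloid markers had peaks as often as the NK cell markers, so that these counts do not tell the cell types apart. The strongest peak-calling log10 p per gene ran from -25.0 to -624 for NK cell and from -12.7 to -322 for myeloid markers. It ran from -6.35 to -46.8 for T cell and from -9.11 to -27.6 for B cell markers with a peak. The erythroid markers Hbb-bs and Hba-a1 had -2440 and -788, beyond every NK cell marker. A peak does not measure the level of an mRNA, and whether RNA of other cells had a part in the histone peaks was not tested. The list gives no expression level either. In RNA from many cells, fewer cells that transcribe a gene and less of its RNA per cell cannot be told apart.

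The stem-loop, which the choice of genes did not use, largely separated the classes. A match within 300 nt past the stop codon was found in 62 of 70 replication-dependent genes and in 1 of 21 variant genes, H2afx, and in 0.333% of 21938 protein-coding genes. The loop pattern of 16 nt, with a 6-nt stem and a 4-nt loop, was searched on the gene strand, and it began 22 to 59 nt past the stop codon (median 32 nt). The distinct stem-loops are shown because they carry the class difference. Stems are in capitals and loops in lower case, read 5′ to 3′ on the gene strand of the RefSeq GRCm38.p6 genome, with 1 gene as example for each.
Hist1h1c, chr13:23739512-23739527, plus strand: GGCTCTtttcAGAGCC
Hist1h2bk, chr13:22036300-22036315, plus strand: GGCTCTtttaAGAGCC
Hist1h4c, chr13:23698089-23698104, minus strand: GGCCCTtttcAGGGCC
Hist1h4i, chr13:22040966-22040981, minus strand: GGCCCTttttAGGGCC
Hist1h4b, chr13:23757366-23757381, plus strand: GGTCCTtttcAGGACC
Hist1h4a, chr13:23760800-23760815, minus strand: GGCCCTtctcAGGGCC
Hist1h3g, chr13:23535889-23535904, plus strand: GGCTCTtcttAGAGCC
Hist2h2ac, chr3:96220418-96220433, minus strand: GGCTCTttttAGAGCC
H2afx, chr9:44335240-44335255, plus strand: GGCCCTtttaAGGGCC
The form of Hist1h1c occurred in 38 genes of the H1, H2A, H2B and H3 types, of which 14 had a peak. The form of Hist1h2bk, with another last base of the loop, occurred in 9 genes, of which 2 had a peak. The form of Hist1h4c occurred in 8 H4 genes, of which 6 had a peak. The form of Hist1h4i was shared with Hist2h4 and that of Hist1h4b with Hist1h4j, and those of Hist1h4a, Hist1h3g, Hist2h2ac and H2afx were each found in 1 gene. In Hist1h4b the last arm of the stem also holds the letters GGAC.

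A polyadenylation signal, AATAAA or ATTAAA in the last 50 nt of a coding transcript with a 3′ UTR of at least 50 nt, was found in 77.1% of protein-coding genes. It was present in 10 variant genes, among them 7 of the 8 with a peak (H2afy had none in that window). It was also present in 17 replication-dependent genes, of which 13 had the stem-loop as well, and in 8 of the 29 with a peak. Since poly(A) RNA was the starting material, these ends are shown for the most significant peak of each class, for H2afx, which carries both signals, and for Hist4h4, which has a long annotated 3′ UTR. Capitals mark the signal.
H3f3a, chr1:180800838-180800863, minus strand: tttgaaaaatAATAAAagtaccaata
H2afx, chr9:44336033-44336058, plus strand: ggctaattttATTAAAggatcgtttg
Hist1h1c, chr13:23740332-23740357, plus strand: gtatgcttctAATAAAaagcgtttag
Hist4h4, chr6:136801553-136801571, minus strand: gaggagatgaAATAAAtac
Hist1h1c, H2afx and Hist4h4 thus hold a stem-loop near the stop codon and a polyadenylation signal further downstream. Which of the 2 ends the sequenced molecules had was not measured.

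Having a peak was about as common among histone genes as among genes at large, and it differed between histone types. Of protein-coding replication-dependent genes, 28 of 67 (41.8%) had a peak, and of protein-coding variant genes 8 of 15 (53.3%), beside 46.3% of all protein-coding genes. H4, a core histone, had peaks in 9 of 13 replication-dependent genes, and the linker histone H1 in 4 of 6. H2B had peaks in 8 of 19, H2A in 7 of 20, and H3 in 1 of 12 genes, Hist1h3g. Among variants, peaks were assigned to 5 of 11 H2A, 2 of 6 H3 and 1 of 4 H1 genes. The 6 variant entries that are pseudogenes or noncoding had none.

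**Figure D1:**
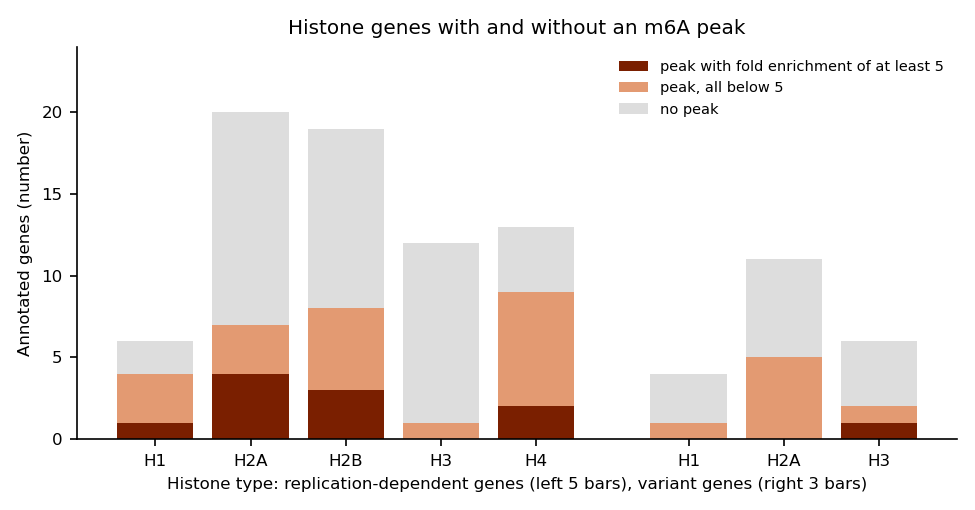
Stacked bars give the number of annotated genes (vertical axis) of each histone type (horizontal axis) with a peak of fold enrichment of at least 5, with weaker peaks only, or with no peak. H4 has the tallest coloured bar of the replication-dependent types (9 of 13 genes) and H3 the shortest (1 of 12).

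By position in the genome, the large Hist1 cluster on chromosome 13 falls into 2 blocks. Peaks were assigned to 10 of 24 genes in the block chr13:21715763-22043676 and to 14 of 31 in the block chr13:23531050-23934851. Fold enrichments of 5 or more were found for 5 of 12 peaks in the first block (41.7%) and 4 of 24 in the second (16.7%), beside 34.6% of all peaks. Hist1h1d gave 2 of those in the second block. The Hist2 genes on chromosome 3 had peaks in 3 of 10 genes, Hist4h4 on chromosome 6 had peaks, and none of the 3 Hist3 genes on chromosome 11 was named for a peak.

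Replication-dependent peaks had higher fold enrichments than variant peaks but much weaker p-values. The median fold enrichment was 3.43 over the 47 replication-dependent peaks (quartiles 2.09 and 4.65, range 1.43 to 96.7) and 1.93 over the 22 variant peaks (quartiles 1.48 and 2.91, range 1.13 to 18.0), beside 2.66 over all peaks. A fold enrichment of at least 2 was reached by 85.1% and 45.5% of them, beside 63.9% of all peaks. A peak-calling p of 0.001 or less was reached by 12 of 47 replication-dependent peaks (25.5%) and by 21 of 22 variant peaks (95.5%), beside 61.6% of all peaks. The median log10 p was -2.34 for the replication-dependent and -10.3 for the variant peaks. Peaks of 1 gene share their RNA, and none of these peaks is a replicate of another.

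**Figure D2:**
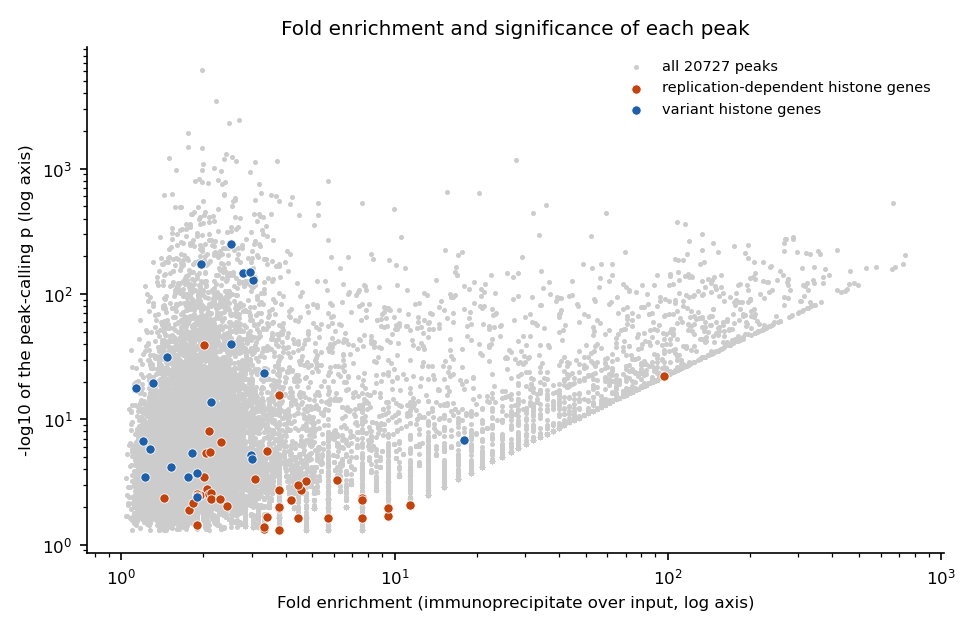
Each point is 1 peak, with its fold enrichment (horizontal, log axis) and the -log10 of its peak-calling p (vertical, log axis), in grey for all 20727 peaks and in colour for the 2 histone classes. Variant peaks sit mostly high on the left and replication-dependent peaks low, with medians of 1.93 and 3.43 in fold enrichment.

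Strong peaks, with a fold enrichment of at least 5, numbered 11 among 47 replication-dependent peaks (23.4%, exact 95% interval 12.3 to 38.0%) and 1 among 22 variant peaks (4.55%, interval 0.115 to 22.8%), beside 34.6% of all peaks and 29.5% of those of protein-coding genes. Several of these peaks share a gene or overlap, so that the intervals cannot show whether either share differs from that of the list. The intervals cover counting error only. Counted by gene, strong peaks were found in 11 of 37 histone genes with a peak, beside 49.6% of all genes with a peak. Among protein-coding genes with a peak the counts were 10 of 36 histone genes and 4411 of 10174 in the list. The choice of the threshold matters to the order, since with 2 as the threshold the replication-dependent share lies above that of the list.

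**Figure D3:**
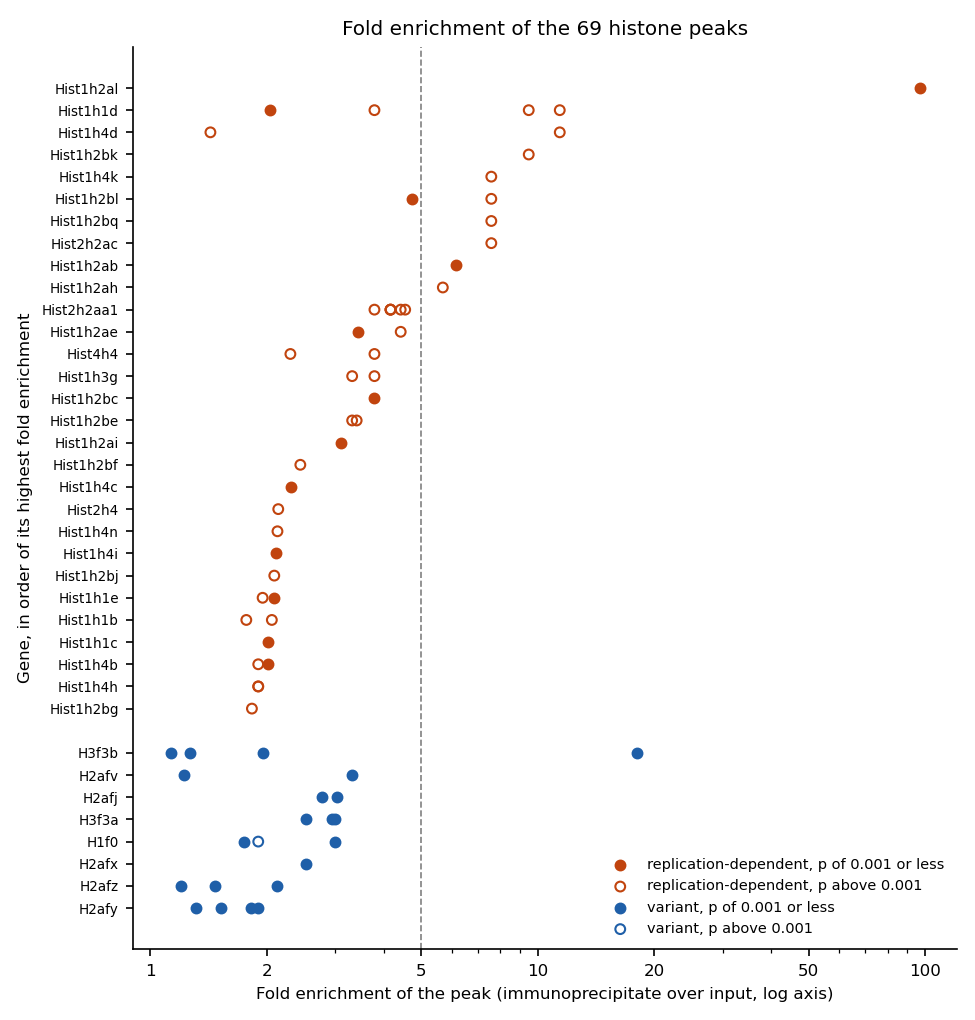
Points show the fold enrichment (horizontal, log axis) of the 69 peaks by gene, filled where the peak-calling p is 0.001 or less, and the dashed line marks a fold enrichment of 5. Of the strong replication-dependent peaks only those of Hist1h2al and Hist1h2ab are filled, while all variant points but 1 are.

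The linker histone genes had values near 2 except for the downstream peaks of Hist1h1d. Hist1h1c had the most significant replication-dependent peak, chr13:23738928-23740187, at 2.01 (log10 p -39.0). It covered 80.8% of the exonic length and ran from -559 nt to 700 nt relative to the end of the stop codon. Hist1h1d had 4 peaks, of 2.04 in the coding sequence and of 11.4, 9.48 and 3.79 in a 3′ UTR annotated over 4931 nt. The coding peak had a log10 p of -5.41, and the 3 downstream peaks had -2.09, -1.69 and -1.96. Hist1h1e had peaks of 2.09 (log10 p -8.04) across the stop codon and of 1.95 past it. Hist1h1b had 2 coding peaks of 2.06 and 1.77.

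H2A genes had the highest median of the replication-dependent types, 4.43 over 13 peaks. The highest fold enrichment of any histone peak, 96.7 with a log10 p of -22.1, was that of Hist1h2al, a gene annotated as a processed pseudogene and lying apart from the clusters. The peak, chr13:51202727-51203065, was the whole annotated gene, and 19.2% of its 100-nt words and 67.6% of its 50-nt words also occurred in transcripts of other genes. It overlaps 109 nt of the opposite-strand entry Gm44341. Hist1h2ab had 6.16 (log10 p -3.31), Hist2h2ac 7.59 (log10 p -1.62) and Hist1h2ah 5.69 (log10 p -1.63). Hist1h2ae had 3.43 (log10 p -5.60) in the coding sequence and 4.43 (log10 p -1.63) past the stem-loop, and Hist1h2ai had 3.10.

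Hist2h2aa1 alone gave 6 of the 13 H2A peaks, and these were 2 sets of overlapping spans. The first set, near the start codon, had 4.17 in each of 3 spans, and the second had 4.55, 3.79 and 4.43. All 6 spans lie wholly in exons of the overlapping entry Gm20634 on the same strand. All 100-nt words of the second set also occurred in transcripts of other genes, and Gm20634 was not set apart from copies elsewhere. Merging overlapping peaks gave a replication-dependent median of 3.37 in place of 3.43.

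H2B peaks had a median of 3.60 over 10 peaks. The highest was that of Hist1h2bk at 9.48 (log10 p -1.96), followed by Hist1h2bl and Hist1h2bq, which both had 7.59 with a log10 p of -2.37. Hist1h2bl had a further peak of 4.74 (log10 p -3.22). Hist1h2bc, with an annotated intron, had 3.79 with a log10 p of -15.5 over 92.3% of its exonic length. Hist1h2bf had 2.44, Hist1h2bj 2.09 and Hist1h2bg 1.83. Hist1h2be had 3.41 and 3.32, but both spans touched 0 nt of its main coding transcript and lay on another annotated isoform. The span of the 3.32 peak also lies, over 60 nt, in an exon of Hist1h1e on the same strand, so that the gene it belongs to is uncertain.

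The only replication-dependent H3 gene with peaks, Hist1h3g, had 3.32 near its start and 3.79 across its stop codon, with log10 p of -1.38 and -1.98. The other 11 replication-dependent H3 genes had no peak of their own name.

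H4 genes had peaks most often and a low median of 2.13 over 13 peaks. Many of their values lay close to 2, among them Hist1h4c at 2.31 (log10 p -6.61), Hist1h4i at 2.11 (log10 p -5.49), Hist2h4 at 2.14, Hist1h4n at 2.13, Hist1h4b at 2.01 and 1.90, and Hist1h4h at 1.90 in both a 5′ UTR and a coding peak. The 2.01 span of Hist1h4b, 1740 nt wide, holds 397 nt of its exon and 1421 nt of exons of the opposite-strand gene 4930558J22Rik. The 1.90 span lies within it and overlaps that gene over 110 nt, so that the gene of both peaks is uncertain. Hist1h4k had 7.59 (log10 p -2.27). Hist1h4d paired the lowest value of the class, 1.43 in the coding sequence, with 11.4 in its 3′ UTR, and Hist4h4 had 2.30 in the coding sequence and 3.79 in its 3′ UTR. The downstream peaks of Hist1h4d and Hist4h4 had log10 p of -2.09 and -1.31.

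The variant genes carried the most significant histone peaks. H3f3a and H3f3b both encode the replacement histone H3.3. H3f3a had 2.52 with a log10 p of -251 around its stop codon and start of the 3′ UTR, and 2.95 with a log10 p of -151 centred in its coding sequence. All 539 nt of the 2.52 span also lie in exons of the opposite-strand gene Gm17275, so that the gene of this peak is uncertain. A further H3f3a peak of 3.0 (log10 p -4.85) touched 0 nt of H3f3a exons, lay in an intron, and overlapped 121 nt of the opposite-strand gene Gm17275. H3f3b had the only strong variant peak, 18.0 with a log10 p of -6.82, centred in the 5′ UTR. Its other peaks had 1.96 (log10 p -173) in the coding sequence and 1.27 and 1.13 in the 3′ UTR.

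H2A variants had moderate values. H2afj had 2 overlapping peaks of 3.04 and 2.78 with log10 p of -130 and -146, and the second covered 75.1% of its exonic length. H2afx, which encodes the variant that is phosphorylated at DNA breaks, had 2.52 with a log10 p of -39.8 over nearly its whole 3′ UTR. That peak, chr9:44335224-44336077, spans both the stem-loop and the polyadenylation signal printed above. H2afz, the gene of H2A.Z, had 2.13 in the 5′ UTR, 1.20 in the coding sequence and 1.47 (log10 p -31.3) in the 3′ UTR. H2afv, which encodes a close relative of it, had 3.32 (log10 p -23.6) and 1.22. H2afy, the gene of macroH2A1, had 1.90, 1.82, 1.52 and 1.31, and the last had the strongest p (log10 p -19.6). The span of this 1.31 peak, 9178 nt wide, holds 451 nt of H2afy exons and 387 nt of exons of the opposite-strand gene Gm47071. H1f0, the linker variant of nondividing cells, had 2.99 and 1.75 in the 3′ UTR and 1.90 in the 5′ UTR, and the 1.90 peak was the only variant peak with p above 0.001 (log10 p -2.39).

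Peak centres of replication-dependent genes lay mainly in the coding sequence, and those of variants most often in the 3′ UTR. On the transcript with the longest coding sequence, 32 of 44 placed replication-dependent centres (72.7%) were coding and 11 (25%) were in the 3′ UTR. For the variants these counts were 7 (35.0%) and 10 (50%) of 20, and for all 15280 placed peaks 36.3% and 54.1%. By the region labels in the deposited list, which do not separate coding from noncoding exons, 44.7% of the 47 replication-dependent peaks were labelled exon and 23.4% 5′ UTR, where the placement above put 2.27% of 44 centres in the 5′ UTR. Annotated lengths differ between the classes, with a median exonic length of 532 nt for replication-dependent and 1308 nt for variant genes, and 13 of 67 protein-coding replication-dependent genes and 3 of 15 variant genes have no annotated 3′ UTR.

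Against the stem-loop, 29 replication-dependent peaks ended before it, 7 spanned it and 7 began past it. This split depends on the annotation. The annotated transcripts of Hist1h1b, Hist1h2ah, Hist1h2ai, Hist1h2bl and Hist1h4k end before the stem-loop, so that their peaks could only fall before it. The peaks past the stem-loop lay in 5 genes, Hist1h1d, Hist1h1e, Hist1h2ae, Hist1h4d and Hist4h4. The mature form of the mRNA that ends at the stem-loop does not hold this sequence. Their median fold enrichment was 4.43 and 3 of 7 were strong, while 0 of 7 had a p of 0.001 or less. Before the stem-loop the median was 2.44, 4 of 29 peaks were strong, and 7 of 29 had a p of 0.001 or less. The 7 peaks that spanned it had a median of 3.79, and 4 of them had such a p. Hist1h1d gave 3 of the 7 downstream peaks.

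**Figure D4:**
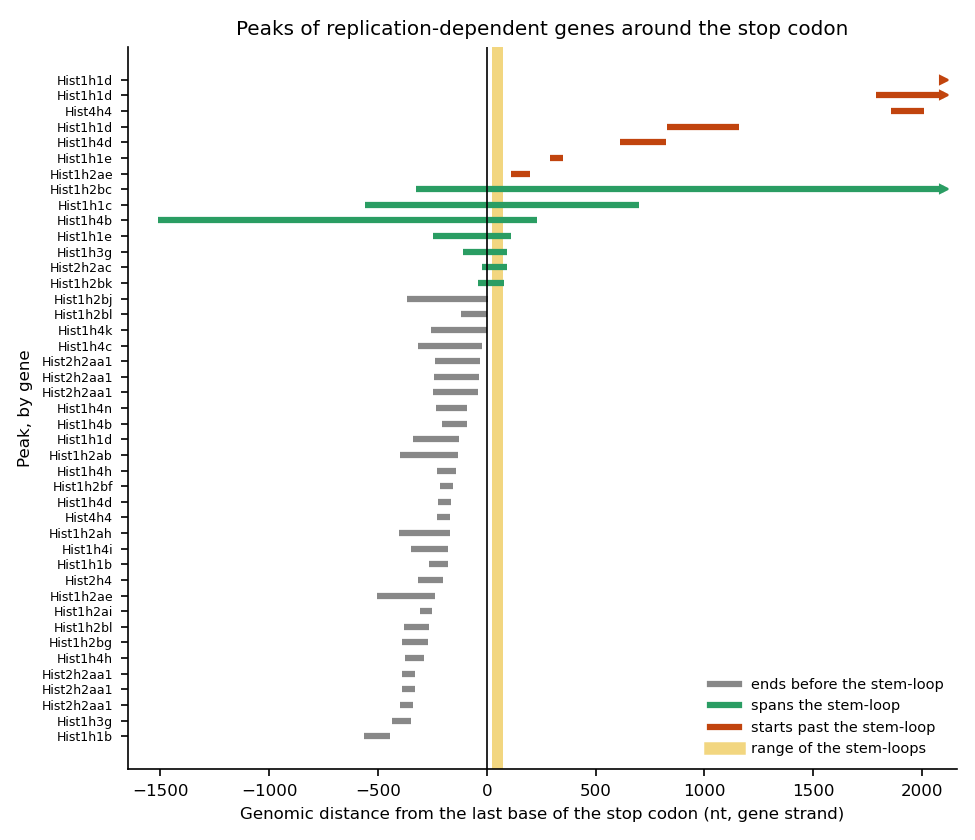
Each line is 1 peak of a replication-dependent gene with a stem-loop, drawn from its first to its last base as genomic distance in nt from the end of the stop codon (vertical line), and the shaded band is the range of the stem-loops. Of the 43 peaks 29 end left of the stem-loop and 7 begin right of it, and an arrowhead marks peaks that run or lie beyond the axis.

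DRACH sites were sparse in the coding peaks of replication-dependent genes and as dense past the stem-loop as in the list at large. The peaks held 13.1 DRACH sites per kb of exonic sequence in the replication-dependent class and 17.0 in the variants, beside 20.4 in all peaks. Before the stem-loop the density was 5.55 per kb, across it 15.6, and past it 20.4. Of the 80 sites past the stem-loop, 63 stood in the longest peak of Hist1h1d. H2A peaks had the lowest density of the types, 3.23 per kb, and 8 of their 13 peaks held no DRACH site. The 6 overlapping peaks of Hist2h2aa1 are among these 8, and without that gene the H2A density was 5.13 per kb and 2 of 7 peaks held no site. Of all replication-dependent peaks 31.9% held none (9 of 41 without Hist2h2aa1), beside 13.6% of variant peaks and 12.3% of all peaks. The coding sequences themselves differed in the same order when genes with and without a peak were pooled. They held 9.32 DRACH sites per kb in replication-dependent genes, 16.3 in variants and 20.9 in all protein-coding genes. Whether the order holds separately in genes with and without a peak was not tested.

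**Figure D5:**
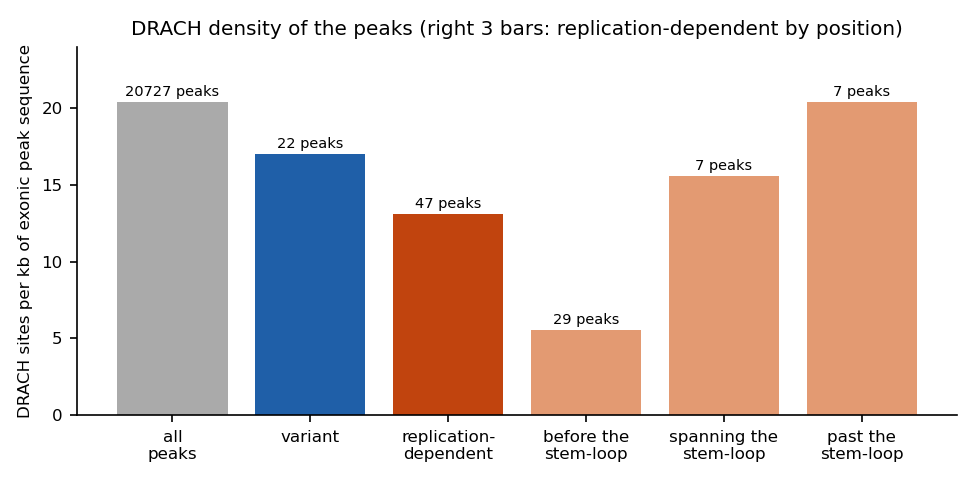
Bars give DRACH sites per kb of exonic peak sequence on the gene strand (vertical axis, from 0) for all peaks, both histone classes, and the replication-dependent peaks by position against the stem-loop, with the number of peaks above each bar. The bar before the stem-loop (5.55 per kb) is the lowest, and the bar past it (20.4 per kb) equals that of all peaks.

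The GGAC core was found at 2.78 sites per kb in replication-dependent peaks and 3.49 in variant peaks, beside 3.77 in all peaks. The base that follows the core decides whether it is part of a DRACH site, and 23 of 35 replication-dependent cores (65.7%) and 24 of 29 variant cores (82.8%) were. The windows shown are 2 that were identical in several genes, 1 from the most significant peak of each class, and 1 from a strong peak past a stem-loop. Capitals mark the core.
Hist1h2bg, chr13:23571497-23571520, plus strand: cccagaagaaGGACggcaagaagc
Hist1h4c, chr13:23698182-23698205, minus strand: tcaccgccatGGACgtggtctacg
Hist1h1c, chr13:23739734-23739757, plus strand: agttcgtattGGACtgcaaggtga
Hist1h4d, chr13:23582526-23582735, past the stem-loop, plus strand: tacactttagGGACtaaactcagg
H3f3a, chr1:180802763-180802786, minus strand: aaaattttctGGACaatgccagca
The first window stood in the peaks of 5 H2B genes, Hist1h2bc, Hist1h2bg, Hist1h2bj, Hist1h2bl and Hist1h2bq. The second stood in the peaks of Hist1h4b, Hist1h4c and Hist1h4k. In both, G follows the core, so that neither is a DRACH site. The other windows are DRACH sites, and for Hist1h4d the coordinates are those of the peak.

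Near-identical copies make the gene given to a coding peak uncertain. Of the 33 replication-dependent peaks long enough for 100-nt words, about the fragment length, 16 (48.5%) held a word that also occurs in a transcript of another gene, and in 6 of them all words did. For the variants this was 2 of 17 (11.8%), and for all peaks 8.86%. With 50-nt words the shares were 63.8%, 30% and 15.6%. Before the stem-loop 11 of 18 peaks held a shared word, and past it 0 of 5. Hist1h2bq, Hist1h4n, a peak of Hist1h4b and the second set of Hist2h2aa1 consisted of shared words throughout. For Hist2h2aa1 the overlapping same-strand entry Gm20634 counts as another gene, so that its shared words need not come from a copy elsewhere. How the authors counted reads that match several genes is not given in the sources used here.

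Besides the 69 peaks, 16 peaks of the list overlapped exons of 10 histone genes but carried the name of another gene. In 12 cases that gene lies on the other strand, and in 9 it is an entry annotated as a miRNA. The strongest in significance, named Gm17275, had 3.05 with a log10 p of -252 and nearly the span of the H3f3a peak of 2.52. Hist3h2a had no peak of its own name but lay under 5 peaks named Trim17 or Gm44313, of 1.36 to 2.28. Hist2h3c1 lay under a peak of 5.69 named Gm20634. Hist1h2an, H2afy2 and H2afb3 likewise had such peaks only, and that over H2afb3 was a long span named Pcdh11x, introns included. Whether reads were counted by strand is not given, so reads from a gene and its antisense partner cannot be told apart here.

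Fold enrichments fell on recurring values in the whole list, the replication-dependent genes included. Of the values from 5 to 30 in the whole list, 78.4% lay no further from a whole multiple of 1.897 than rounding to 3 significant digits allows. Among values up to 30, this held for 17 of 46 replication-dependent peaks (37.0%), 2 of 22 variant peaks (9.09%) and 27.2% of all peaks. It held for every strong replication-dependent peak except that of Hist1h2ab and that of Hist1h2al, whose value lies above 30. The strong peaks on the step all had p above 0.001. The downstream peaks of Hist1h1d and Hist1h4d had the same pair of 11.4 and -2.09, and another Hist1h1d peak had 9.48 and -1.69, a pair that 845 peaks of the list share. The read counts behind these values are unknown, and what sets the step was not tested.

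Of 29 genes listed for histone mRNA processing and decay, 23 (79.3%) had a peak, beside 46.3% of all protein-coding genes. The list gives no expression level, so that the 46.3% was not matched to these genes for expression. What sets the difference was not tested. Of these 23 genes 12 (52.2%) had a strong peak, beside 4411 of 10174 protein-coding genes with a peak and 49.6% of all genes with a peak, noncoding ones included. Tut7, which adds uridines to histone mRNA during its decay, had the highest fold enrichment, 56.9 with a log10 p of -172, on an exon outside its main coding transcript. Slbp, the gene of the stem-loop binding protein, had 4 peaks of 1.61 to 25.3, and the strongest (log10 p -15.0) likewise lay outside its main coding transcript. Snrpf, an Sm protein gene, had 24.7 and 2.89. Lsm10, Lsm11 and Zfp473, whose proteins belong to the U7 particle that cuts histone mRNA or bind to it, had no peak, nor did Casp8ap2, Ncbp1 and Tent4b. These genes without a peak are named after their values were seen.

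Of 34 histone chaperone and exchange genes found, 32 (94.1%) had a peak, beside 46.3% of all protein-coding genes. Here too the 46.3% was not matched for expression, and what sets the difference was not tested. A strong peak was found in 8 of these 32 (25%), beside 4411 of 10174 protein-coding genes with a peak and 49.6% of all genes with a peak. The highest were Ubn2 of the HIRA complex at 24.7, Srcap, which exchanges H2A.Z, at 20.9, and Rbbp4 and Nasp, a chaperone subunit and a chaperone of H3 and H4, both at 15.2. The Rbbp4 peak lay outside its main coding transcript. Asf1b and Hira, named after their values were seen, had no peak. The median was 2.26 over the 49 peaks of the processing list and 2.25 over the 71 of the chaperone list, beside 3.43 and 1.93 in the histone classes themselves.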

How the data were processed

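The deposited list held 1 set of m6A peaks from 4 libraries (2 immunoprecipitates, 2 inputs) with 0 columns of values per sample, and the depth is unknown. Per the study's methods and the submitters' processing notes, the authors trimmed reads with Trimmomatic, Cutadapt and fastp, mapped these to GRCm38 with HISAT2, called peaks with exomePeak and assigned genes and regions with ChIPseeker. How replicates were combined is not given in the sources used here. The fold enrichment is a ratio of immunoprecipitate over input made by the authors. The deposited significance is a score, the log10 of the unadjusted peak-calling p, and its weakest value was -1.30.

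Of 20751 rows, 24 repeats were dropped. Of 12351 gene identifiers, 12332 were found in GENCODE M21 (GRCm38). Peaks were placed on the transcript with the longest coding sequence by the centre of their exonic part. Motifs were read from the RefSeq GRCm38.p6 genome (pysam 0.24.0, samtools 1.23.1), in which 128 of 128 histone transcripts were identical to the annotation's sequences. Shared words were 100-nt words found on the sense strand of transcripts of another gene. Intervals of shares are Clopper-Pearson intervals (scipy 1.17.1) for counting error only. The median fold enrichments had intervals of their own, 2.3 to 4.17 for the replication-dependent and 1.47 to 2.95 for the variant peaks. No test was run, since peaks and genes are not replicates. The scripts were tested on simulated data.

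The members and lists were chosen with earlier results of these data known. All histone genes with a peak are given. The naming rule takes all variants, the replication-dependent genes with the 8 highest and 8 lowest fold enrichments and the 5 most significant peaks, and of the other lists Slbp and the 3 genes with the highest fold enrichment. Further genes were named after their values were seen. Older symbols in the lists were matched through RefSeq synonyms. Alternatives changed thresholds, the unit counted, gene assignment, gene class, transcript model, position and word length.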

Additional observations from a re-analysis of the deposited data

How the results depend on the processing

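Of 50 alternative values for 14 results, 43 stayed within the counting interval of the reported value. The share of replication-dependent peaks at or above the fold threshold went from 23.4% at 5 to 85.1% at 2 and 6.38% at 10, and that of variant peaks from 4.55% to 45.5% at 2. By the region labels of the deposited list, 44.7% of replication-dependent and 13.6% of variant peaks were labelled exon, coding or not, beside 72.7% and 35.0% of centres in coding sequence, and 23.4% of replication-dependent peaks were labelled 5′ UTR in place of 2.27%. Peaks were also placed by the centre of the genomic span, introns included. This put 71.4% of variant centres in the 3′ UTR and 21.4% in the coding sequence, in place of 50% and 35.0%. For replication-dependent genes the coding share was 73.8% in place of 72.7%. Counting each gene once, by its highest value, the variant median was 3.0 in place of 1.93, and the replication-dependent median 3.79. Among peaks with p of 0.001 or less the medians were 2.71 and 1.96. The merging of overlapping peaks and the omission of Hist2h2aa1 were chosen after seeing the data and gave replication-dependent medians of 3.37 and 3.32. Words of 50 nt in place of 100 nt raised the shares of peaks with a shared word from 48.5% to 63.8% in the replication-dependent and from 11.8% to 30% in the variant genes. No paired analysis was possible because the list holds no value of any single library, whatever replicate numbers the labels give. The planned omission of each replicate was not run for the same reason. The unknown depth and the missing replicate values limit each fold enrichment, since its error cannot be given.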
